A study of Homo sapiens with 9 samples.

Results

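PC3 cells were compared with androgen-treated LNCaP cells across every gene that reached more than 3 counts per 1000000 reads (CPM) in at least 3 of the 6 libraries, which left 12541 of the 28216 genes in the deposited table. The study sequenced poly(A) RNA from prostate cancer cell lines that it used as models for the roles of sortilin and syndecan-1. The PC3 libraries came from untreated wild-type cells grown in F12K medium with serum. The LNCaP libraries came from wild-type cells of clone FCG that were first kept in phenol red-free RPMI medium with charcoal-stripped serum, which is low in steroids, and then received 10 nM androgen for 48 h. The sample labels and the supplement name this androgen DHT, whereas the main text names R1881. Each group held 3 libraries. Cell line, medium, serum and androgen differ together between the groups and cannot be told apart. A further group of 3 LNCaP libraries received 0.01% ethanol as vehicle for 48 h, and comparisons with it share the PC3 libraries with the main comparison.

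Both lines are established cultures of prostate cancer metastases, PC3 from bone and LNCaP from a lymph node, and each stands for a single patient. LNCaP cells keep much of the secretory programme of luminal prostate cells, in which androgen drives genes of the prostatic fluid, of lipid synthesis and of protein secretion. PC3 cells grow without androgen, and are known for a spread, invasive habit. The comparison therefore addresses which pathways and gene families separate these 2 states of prostate cancer cells, beyond the genes that the study itself discussed, which are not treated here.

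Between 22444083 and 25640325 reads were counted on genes in a PC3 library and between 21094326 and 23460708 in an LNCaP library, so that the limit set by 3 counts lay between 0.117 and 0.142 CPM per library, from counting error only. Log2 CPM values correlated with Pearson's r of 0.9955 to 0.9966 among LNCaP libraries and of 0.9776 to 0.9942 among PC3 libraries, against 0.6437 to 0.6591 between the lines, across genes, which are not independent. PC3 replicate 3 stood apart most, with 157 of 9850 genes more than 2-fold below the mean of the other PC3 libraries and 19 above. PC3 replicate 2 had 50 genes above and 9 below, led by FAM111B, DTL, RRM2 and TYMS of DNA replication, and PC3 replicate 1 had 11 below, led by the interferon-stimulated genes IFI6, OAS1 and IFI44L. LNCaP replicate 1 held more of the transcripts that were high in PC3 cells than the other LNCaP libraries. For each LNCaP library, genes were taken that were high in PC3 and nearly silent in at least 1 of the 2 other LNCaP libraries, so the gene sets differ. The level in replicate 1 was a median 0.444% of that in PC3 (65 genes), against 0.0346% in replicate 2 (62 genes) and 0.0181% in replicate 3 (52 genes). Fold changes of such genes therefore became larger without replicate 1 and are given both ways where they moved by over 1.5 times, and the cause was not tested. Summed levels of markers that define each line followed the labels, with 4607 to 5202 CPM in PC3 against 19.4 to 44.4 CPM in LNCaP for 8 PC3 markers, and 509 to 849.9 CPM against 7876 to 8253 CPM for 8 luminal markers. Of the PC3 markers, 7 passed the filter and were tested. Among the luminal markers, HOXB13 did not follow the labels. Its level was higher in PC3, by less than 2-fold, and made up most of the luminal sum there. Of the markers of other cells, 5 of prostate basal cells (KRT5, KRT14, TP63, DSG3 and COL17A1) summed to at most 1.48 CPM in any library. Blood cell markers summed to 31.5 to 33.4 CPM in PC3 and 15.7 to 22.4 CPM in LNCaP, nearly all of it CD68, endothelial markers to 5.88 to 8.19 and 6.65 to 7.7 CPM, and neuroendocrine markers to 1.77 to 2.33 and 5.04 to 5.13 CPM.

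Of the 12541 genes, 5773 (46.0%) were called different by edgeR's quasi-likelihood test, with an adjusted p below 0.05 and a difference of 2-fold or more. Of these, 3005 genes (24.0%) were higher in PC3 and 2768 (22.1%) were lower, and these shares are the background against which every gene list is set. The groups did not overlap for 86.4% of all genes tested, so that separation of the libraries alone says little about a gene. The median log2 fold change (PC3 over LNCaP) was 0.0356 over all genes tested, and the median absolute change was 0.9. As many as 1219 genes were above 3 CPM in no LNCaP library and 836 in no PC3 library, and these passed the filter only through the line in which they were high. Among the 10100 genes above 3 CPM in all 6 libraries, 34.8% were called, 16.9% higher and 17.9% lower. Against vehicle-treated LNCaP, 12686 genes were tested and 43.2% were called, 22.2% higher and 21.0% lower in PC3. Differences between the 2 comparisons were not tested, and their values are given side by side. In bulk RNA, fewer cells that express a gene and less RNA per cell cannot be told apart.

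**Figure D1:**
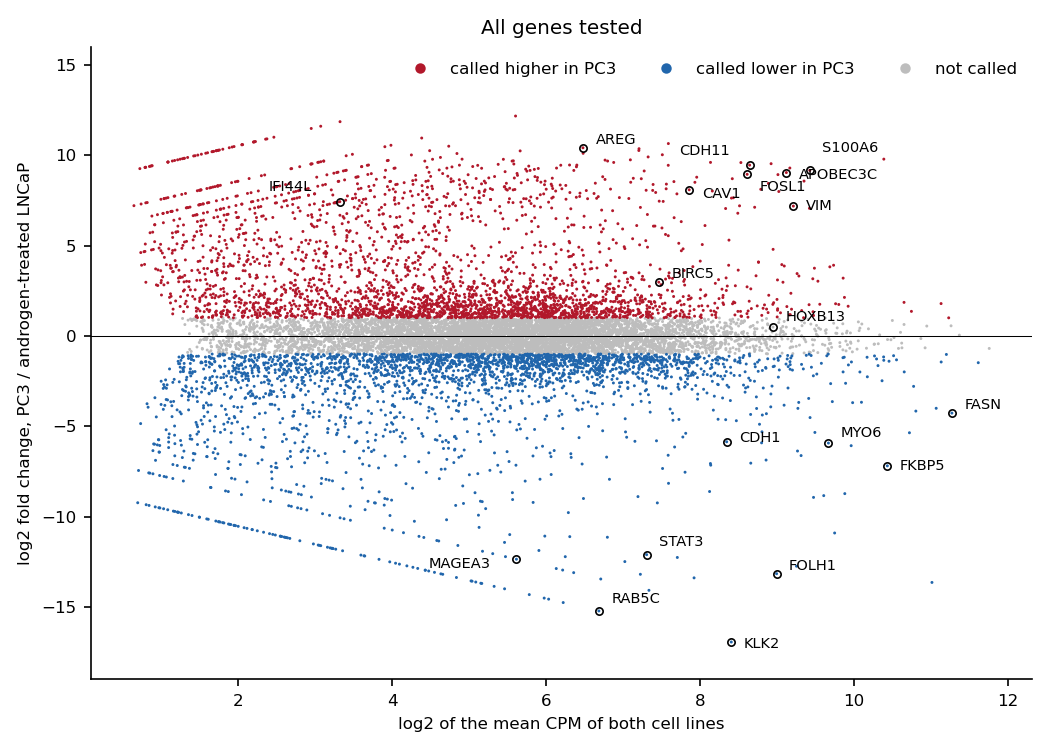
Log2 fold change of PC3 over androgen-treated LNCaP (vertical axis) against the log2 of the mean CPM of both lines (horizontal axis) for all genes tested outside the Y chromosome, with 3 libraries a group. Red points are called higher in PC3, blue points lower and grey points not called, and the outer diagonal bands are genes at 0 or near 0 counts in one line, whose fold depends on the small count added in the fit.

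The largest rises among genes with at least 100 CPM in the higher line were spread over unrelated families. LINC02582, a long non-coding RNA (chromosome 18, 73324941 to 73349879 in GRCh38), had 9519, 8582 and 11027 counts in PC3 libraries 1 to 3 and 15, 0 and 0 in the LNCaP libraries, with a log2 fold change of 10.65, and 16.14 without LNCaP androgen replicate 1. MIR100HG, the host transcript of a microRNA cluster, had 9211, 6888 and 11644 counts against 22, 0 and 0. In both genes, the counts of the LNCaP group came from replicate 1 alone. MSMP, a small secreted protein named for microseminoprotein, was abundant in PC3, with 2635, 2270.1 and 3139.6 CPM against 8.25, 0.287 and 0.291 CPM, and a log2 fold change of 9.79, and 13.15 without LNCaP androgen replicate 1. The secreted bone morphogenetic protein antagonist NOG (101 ± 19.3 CPM in PC3, SD, n = 3), the lysophosphatidic acid receptor LPAR1 (273 ± 12.9 CPM), the pentraxin PTX3 (223 ± 70.4 CPM), the nuclear receptor NR2F1 (218 ± 24.96 CPM), the calcium buffer CALB1 (296 ± 37.7 CPM), PHACTR3 (295 ± 19.9 CPM), ABI3BP (179 ± 51.1 CPM) and SHISA3 (321 ± 53.8 CPM) completed this group with AREG. Their means in LNCaP were at most 0.319 CPM, and replicate 1 held most of those counts.

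Among the largest falls were genes of the secretory prostate epithelium, and PC3 libraries held 0 to 2 counts of each. KLK2, the kallikrein protease of prostatic fluid (chromosome 19, 50861568 to 50880567), was at 0 counts throughout PC3 and had 14426, 13739 and 15238 in LNCaP, so that it was at least 4777-fold lower in PC3 against the limit of 3 counts per library. GLYATL1, a glycine acyltransferase, and GPR158, an orphan receptor, also had 0 PC3 counts against 2661, 2691 and 2696 and against 2661, 1964 and 2433. AZGP1, a zinc-binding glycoprotein of prostatic fluid, had 1, 1 and 0 counts in PC3 and 7622, 5578 and 6029 in LNCaP. The transcription factor MAF, the potassium channel KCNN2 and PRUNE2 stood between 209.7 and 486 CPM in LNCaP as means. ZNF812P had 0 PC3 counts as well, but 86.5% of its 74-base stretches are found in other places as well, so its level is uncertain.

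Luminal secretory genes were lower in PC3 almost without exception. Of 39 listed, 35 were tested, of which 34 were called lower and 0 higher, with a median log2 fold change of -5.81. Among the 23 above 3 CPM in every library, 0 were higher and 22 lower. The other 12 passed the filter through LNCaP alone. The protease TMPRSS2 had 29.2 ± 7.07 CPM in PC3 and 1971 ± 102 CPM in LNCaP. FKBP5, a co-chaperone of steroid receptors and a familiar androgen target, had 18.0, 28.0 and 10.6 CPM in the PC3 libraries and 2688, 2836 and 2732 CPM in the LNCaP libraries. FOLH1, which encodes prostate-specific membrane antigen, had 0, 1 and 7 counts in PC3, of which replicate 3 held most, against 23643, 21356 and 20441 in LNCaP. The transporter SLC45A3 (-6.62), the metalloreductase STEAP2 (-5.92) and the kallikrein KLK4, with 4, 3 and 0 counts in PC3 against 5113, 4662 and 4469, followed. The single member not called was HOXB13, the homeobox factor that marks the prostate lineage, with 454, 501 and 779 CPM in PC3 and 406, 422 and 405 CPM in LNCaP and a log2 fold change of 0.49 (SE 0.19, adjusted p = 0.0395). All 3 PC3 libraries lay above all 3 LNCaP libraries for HOXB13, by less than 2-fold as a mean. Against vehicle-treated LNCaP, 24 of 32 luminal genes were lower and 2 were higher, with a median of -2.59, and the 2 that were higher were the elongation factor ELL2 (-1.26 against androgen-treated and 2.29 against vehicle-treated cells) and NDRG1 (-2.62 and 2.19).

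Genes that shape epithelial junctions and polarity were lower along with them. Of 31 tested, 25 were lower and 2 higher in PC3, with a median of -2.72. Among the 20 above 3 CPM in every library, 1 was higher and 16 lower. As many as 26 were lower against vehicle-treated cells. The small GTPase RAB25, which recycles membrane in epithelial cells, had 0.307, 0.388 and 0.228 CPM in PC3 and 62.0, 67.1 and 62.6 CPM in LNCaP, with a log2 fold change of -7.69 (SE 0.14, adjusted p = 1.21e-08). AP1M2, the epithelial adaptor subunit for basolateral sorting, fell by 7.09 and the epithelial transcription factor EHF by 7.04 on the log2 scale. E-cadherin, CDH1 (chromosome 16, 68737292 to 68835537), had 9.99, 9.87 and 13.2 CPM in PC3 and 670.3, 662 and 590.3 CPM in LNCaP, a difference of -5.86 (SE 0.14, adjusted p = 2.42e-08). The splicing factors ESRP1 (-2.62) and ESRP2 (-2.58), the grainyhead factor GRHL2 (-5.63), the claudin CLDN7 (-6.61) and the serine proteases PRSS8 (-6.65) and ST14 (-5.01) were among the 25. MAL2, a transcytosis protein, was higher in PC3 (847 ± 111 CPM in PC3 and 274 ± 35.3 CPM in LNCaP), and the claudins CLDN3 (-0.30) and CLDN4 (-0.13) were not called, so that the junction genes did not all differ.

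Mesenchymal genes were higher in PC3, with 20 of 27 tested called higher, 5 lower and a median of 4.08. Among the 11 above 3 CPM in every library, 7 were higher and 2 lower. The intermediate filament VIM had 1155, 1135 and 1251 CPM in PC3 and 12.1, 6.84 and 5.13 CPM in LNCaP, with a log2 fold change of 7.19 (SE 0.31, adjusted p = 2.60e-07). The cadherins CDH11 and CDH2, which replace E-cadherin in mesenchymal cells, had 769, 744 and 888 CPM and 177, 164 and 164 CPM in the PC3 libraries, respectively. In LNCaP, CDH11 reached 72, 1 and 0 counts and CDH2 15, 0 and 1 counts, so both were almost confined to replicate 1 there. The log2 fold change of CDH11 was 9.46, and 14.73 without LNCaP androgen replicate 1. That of CDH2 was 9.37, and 12.48 without LNCaP androgen replicate 1. ZEB1, a repressor of epithelial genes, had 61.8 ± 5.18 CPM in PC3 and 0.168 ± 0.125 CPM in LNCaP, and a log2 fold change of 8.45, and 9.25 without LNCaP androgen replicate 1. Of 19 tested collagen genes of the matrix (COL), 15 were higher and 1 lower, and among the 7 above 3 CPM in every library 4 were higher and 0 lower. The lower one was COL26A1, with 0, 3 and 3 counts in PC3 and 151, 131 and 129 in LNCaP. COL13A1 (153 ± 24.4 CPM in PC3), COL6A3 (134 ± 16.6 CPM) and COL12A1 (111 ± 18.98 CPM) were among the higher ones. Not every contractile gene followed, and ACTA2, the smooth muscle actin, was lower in PC3 (0.849 ± 0.363 CPM in PC3 and 23.3 ± 3.63 CPM in LNCaP), as were CALD1 (-1.81) and the tropomyosin TPM1 (-3.04). Fibroblast markers summed to 36.2 to 47.9 CPM in PC3 and 12.5 to 15.01 CPM in LNCaP. Of the 6 markers, 2 passed the filter and were tested, COL1A1 and COL3A1. The highest count of any marker was 1013 in a PC3 library and 309 in an LNCaP library. The others, COL1A2, DCN, LUM and PDGFRB, reached at most 26 counts in any library. The part of fibroblast markers in the list was not tested. Against vehicle-treated cells, 21 of 24 tested genes were higher and 2 lower, with a median of 5.55.

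Actin, myosin and tropomyosin genes split, with 23 of 58 higher and 11 lower in PC3 and a median of 0.415. The crosslinkers FLNC (197 ± 20.1 CPM in PC3 against 0.801 ± 0.929 CPM) and FSCN1 (251 ± 20.1 against 4.12 ± 1.16 CPM) and the calponin CNN3 (111 ± 29.8 against 0.669 ± 0.664 CPM) led the rise. The myosin MYO6, which moves towards the minus end of actin filaments and is abundant in prostate epithelium, had 25.97, 26.4 and 26.5 CPM in PC3 and 1699, 1573 and 1539 CPM in LNCaP. LIMCH1 showed a still larger fall, of 8.73 on the log2 scale. Among integrin alpha chains with numbered symbols, 7 of 8 tested ITGA genes were higher and 0 lower, and 3 of 4 above 3 CPM in every library were higher. ITGA3, a laminin receptor, had 1239, 1041 and 1811 CPM in PC3 against 13.3, 9.27 and 7.80 CPM, highest in PC3 replicate 3, and ITGA5, the fibronectin receptor chain, was the one not called (-0.47).

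Caveolae and membrane repair genes were mostly higher in PC3. Of 28 listed, 20 were tested, of which 14 were higher and 2 lower, with a median of 5.66. Among the 9 above 3 CPM in every library, 3 were higher and 2 lower. Against vehicle-treated cells, 15 of 21 were higher. CAV1, the main caveolar coat protein (chromosome 7, 116524994 to 116561179), had 476, 573 and 341 CPM in PC3 and 3.66, 0.860 and 0.436 CPM in LNCaP, and a log2 fold change of 8.09 (SE 0.54, adjusted p = 2.60e-06), and 9.47 without LNCaP androgen replicate 1. The calcium-binding S100A6 had 1312, 1236 and 1580.01 CPM against 6.38, 0.382 and 0.194 CPM, S100A16 491, 452 and 521 CPM against 2.72, 0.813 and 0.387 CPM, and the annexin ANXA3 121, 108 and 126 CPM against 0.446, 0.191 and 0.145 CPM. Every PC3 library stood more than 10-fold above every LNCaP library for these 4 genes, and in LNCaP replicate 1 was highest for each. CAVIN1, the partner that CAV1 needs to form caveolae, went the other way, with 0 counts in every PC3 library and 75, 97 and 63 in LNCaP, too low to be tested. The raft protein FLOT2 (-1.37) and the membrane-bending PACSIN2 (-2.34) were the 2 members lower in PC3.

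Growth factor ligands were a further group that was higher in PC3. Of 44 listed, 26 were tested, of which 22 were higher and 3 lower, with a median of 5.53. As many as 17 passed the filter through PC3 alone, and among the 8 above 3 CPM in every library, 5 were higher and 2 lower. In all, 23 of 26 higher against vehicle-treated cells. Amphiregulin, AREG (chromosome 4, 74445136 to 74455005), a ligand of the EGF family, had 225, 201 and 109 CPM in PC3 and 0.268, 0.0478 and 0.0484 CPM in LNCaP, and a log2 fold change of 10.42, and 11.70 without LNCaP androgen replicate 1. AREG was lowest in PC3 replicate 3, which was still far above every LNCaP library. The neuregulin NRG2 had 1011, 804 and 1181 counts against 5, 0 and 0, and FGFBP1, a carrier that frees fibroblast growth factors from the matrix, 425, 548 and 312 counts against 0, 0 and 1. EGF itself was lower in PC3 (1.43 ± 0.335 CPM in PC3 and 16.6 ± 1.45 CPM in LNCaP), as were GDF15, a stress-induced cytokine (159.6 ± 54.5 CPM in PC3 and 2035 ± 472 CPM in LNCaP), and VEGFA, the angiogenic factor (-1.54). With GDF15 included, the summed level of the list, scaled over all 9 libraries as for every summed list level given here, was 1380 to 1580 CPM in PC3 and 1970 to 2920 CPM in androgen-treated LNCaP, opposite to the count of genes. For VEGFA, the difference turned to 0.32, not called, against vehicle-treated cells.

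Genes that follow MAPK signalling, many of which dampen it, were higher in PC3 in 18 of 28 cases and lower in 6, with a median of 2.45. Among the 17 above 3 CPM in every library, 9 were higher and 4 lower. FOSL1, a subunit of the AP-1 transcription factor, had 767, 773 and 806 CPM in PC3 and 4.28, 0.287 and 0 CPM in LNCaP, with a log2 fold change of 8.95, and 12.35 without LNCaP androgen replicate 1. ETV4, an ETS factor, had 199 ± 10.6 CPM in PC3 and 0.543 ± 0.650 CPM in LNCaP, and PHLDA1 684 ± 102 CPM in PC3 and 1.60 ± 1.24 CPM in LNCaP. The family of dual-specificity phosphatases did not move as one. DUSP6 (7.57), DUSP5 (6.55) and DUSP4 (4.10) were higher, whereas DUSP8 (-3.12) and DUSP16 (-2.49), which act on stress kinases, were lower. The ETS factor ETV1 also differed in direction from ETV4, with 70.2 ± 7.81 CPM in PC3 and 304 ± 7.35 CPM in LNCaP (log2 fold change -2.12). Over all tested DUSP genes, 7 of 19 were higher and 8 lower.

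**Figure D2:**
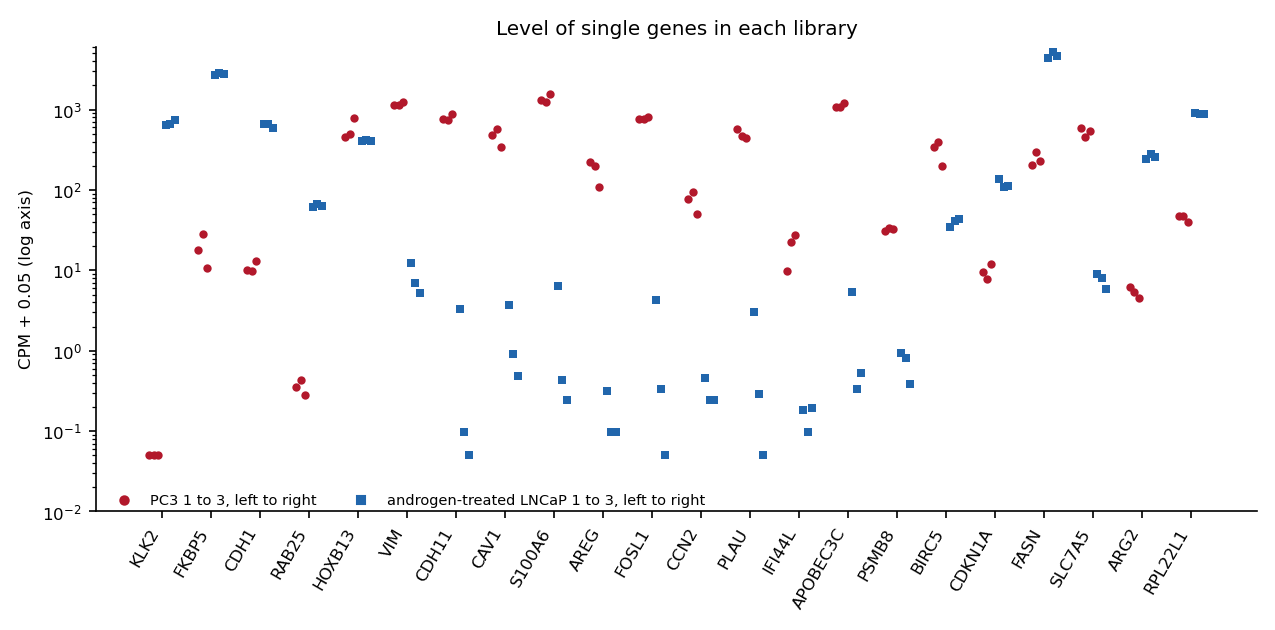
Level of 22 genes in each of the 6 libraries, in CPM plus 0.05 on a log axis, with PC3 replicates 1 to 3 as circles and androgen-treated LNCaP replicates 1 to 3 as squares, from left to right. HOXB13 is the only luminal gene shown whose PC3 values lie above LNCaP, and LNCaP replicate 1 holds more CDH11, FOSL1, S100A6 and PLAU than replicates 2 and 3.

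A list of target genes of the Hippo pathway, with some of the pathway's own factors, had the largest share of higher genes among the 38 lists described here. In this pathway, YAP and its relatives bind TEAD factors at promoters and enhancers. Of 26 tested, 23 were called higher and 1 lower (88.5% and 3.85%), with a median of 3.48, and 23 were higher and 1 lower against vehicle-treated cells as well. Among the 16 above 3 CPM in every library, 14 were higher and 0 lower. AXL, a receptor tyrosine kinase, had 347, 323 and 335 CPM in PC3 and 2.23, 0.478 and 0.194 CPM in LNCaP, with a log2 fold change of 8.39, and 9.94 without LNCaP androgen replicate 1. MYOF, a membrane repair protein, had 883 ± 22.3 CPM in PC3 and 3.14 ± 1.53 CPM in LNCaP. CCN2, a secreted matrix protein and a commonly used readout of the pathway, had 76.6, 94.8 and 49.7 CPM against 0.401, 0.191 and 0.194 CPM, lowest in PC3 replicate 3, with a log2 fold change of 8.09. Of the factors on the list, YAP1 itself (276 ± 16.1 CPM in PC3 and 99.1 ± 5.69 CPM in LNCaP, 1.48) and TEAD1 (2.64) were among the 23 higher members. The single lower member was NUAK2 (1.67 ± 0.388 CPM in PC3 and 3.64 ± 0.647 CPM in LNCaP), which was not called without PC3 replicate 3 or without LNCaP replicate 1. The TEAD motif GGAATG, searched on both strands from 250 bases before to 50 after the start in RefSeq promoters of GRCh38.p14, was present in 7 of 17 tested members with a promoter sequence (41.2%) and in 10.6% of 9959 tested genes. Members were listed as targets of YAP and TEAD or as factors of the pathway, so this share describes the promoters and not the samples. The promoter of CCN2 is shown because it holds 3 copies, in capitals, first bases 169, 104 and 95 before the start (chr6:131951373-131951622, minus strand):
CCN2: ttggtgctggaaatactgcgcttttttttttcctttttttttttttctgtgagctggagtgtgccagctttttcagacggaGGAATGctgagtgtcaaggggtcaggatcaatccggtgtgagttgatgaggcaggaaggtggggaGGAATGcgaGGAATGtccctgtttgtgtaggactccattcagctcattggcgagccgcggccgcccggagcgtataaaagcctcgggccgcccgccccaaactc

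Basal epithelial genes were higher in PC3 as a list, with 11 of 14 tested higher, 2 lower and a median of 4.22, although the defining basal keratins KRT5 and KRT14 and the factor TP63 were too low to be tested. Among the 7 above 3 CPM in every library, 5 were higher and 1 lower. Members that were higher included ITGB4, the integrin chain of hemidesmosomes, which had 162 ± 101 CPM in PC3 and 2.28 ± 0.606 CPM in LNCaP, and S100A2, which had 52.7 ± 7.87 CPM in PC3 and 0.900 ± 0.219 CPM in LNCaP. ITGB4 had 131, 81.2 and 275 CPM in the PC3 libraries, with replicate 3 highest, and its log2 fold change was 6.14, and 5.52 without PC3 replicate 3. The desmosomal PERP was lower in PC3 (-1.18). The AP-1 motif TGANTCA occurred in 6 of 9 tested members with a promoter sequence (66.7%) and in 4.16% of all tested genes, which describes the sequence and not a site in use. The promoter of S100A2 (chr1:153565845-153566094, minus strand) is shown with its single AP-1 match in capitals, first base 52 before the start:
S100A2: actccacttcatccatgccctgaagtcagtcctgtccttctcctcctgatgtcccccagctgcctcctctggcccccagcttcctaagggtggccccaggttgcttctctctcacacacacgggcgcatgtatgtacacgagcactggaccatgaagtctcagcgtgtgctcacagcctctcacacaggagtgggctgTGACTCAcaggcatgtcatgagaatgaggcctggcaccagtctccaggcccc

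Keratins and S100 genes of the same kind lay side by side in the genome. The window of 10 consecutive tested genes with the highest median, 7.05, covered chromosome 12 from 51351247 to 52321398, where KRT7 (200.3, 169 and 243 CPM in PC3 and 1.65, 1.00 and 0.194 CPM in LNCaP), KRT80, KRT81 and KRT83 lie. KRT81, a hair keratin, reached 1305 ± 388 CPM in PC3, but 37.1% of its 74-base stretches occur elsewhere. A window on chromosome 1 from 151806071 to 153613145, with S100A2, S100A3, S100A4, S100A6, S100A10 and S100A16, had a median of 6.24. S100A11 in the same window was not called (-0.083) and was expressed in both lines, and was higher in PC3 than in vehicle-treated cells by 1.07 on the log2 scale.

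Interferon-stimulated genes, which carry the antiviral state, were higher in PC3 in 30 of 43 cases and lower in 5, with a median of 2.04. Against vehicle-treated LNCaP, 30 of 42 were higher and 1 was lower. Among the 28 above 3 CPM in every library, 16 were higher and 4 lower. SAMD9L, an inhibitor of viral replication, had 175, 225 and 382 counts in PC3 and 0, 0 and 3 in LNCaP, IFI16, a DNA sensor, 452, 416 and 559 against 3, 2 and 2, and IFI44L 253, 521 and 721 against 3, 1 and 3. The antiviral GTPase MX1 had 33.7, 69.9 and 90.9 CPM in PC3 and 2.05, 2.15 and 2.52 CPM in LNCaP. PC3 replicate 1 was lowest in these genes, by a median of 0.467 over the list on the log2 scale below the mean of PC3 replicates 2 and 3. The summed level was 1480, 2090 and 2350 CPM in PC3 replicates 1 to 3, against 625 to 666 CPM in LNCaP. Every PC3 library thus stood above every LNCaP library, although PC3 replicates differed among themselves. The members lower in PC3 were led by HERC5, the ligase of ISG15 (5.29 ± 1.06 CPM in PC3 and 21.8 ± 2.21 CPM in LNCaP, -2.05 (SE 0.17, adjusted p = 8.45e-06)), HERC6 (-1.43) and PARP12 (-1.23). Against vehicle-treated cells, HERC5 was higher in PC3, with 1.27, and HERC6 was at 0.031, not called.

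The interferon-stimulated response element GAAANNGAA occurred in 21 of 34 tested members with a promoter sequence (61.8%), in 15 of 23 of those called higher (65.2%) and in 6.06% of all tested genes. Members of the list are known to respond to interferon, so this share describes the promoters and not the samples. Promoters of IFI44L (chr1:78620198-78620447, plus strand) and HERC5 (chr4:88456869-88457118, plus strand) are shown with matches in capitals because both hold the element while their levels differed in opposite directions. The matches begin 164 and 73 bases before the start in IFI44L and 124, 118 and 73 bases before it in HERC5, on the opposite strand, with the first and the second overlapping:
IFI44L: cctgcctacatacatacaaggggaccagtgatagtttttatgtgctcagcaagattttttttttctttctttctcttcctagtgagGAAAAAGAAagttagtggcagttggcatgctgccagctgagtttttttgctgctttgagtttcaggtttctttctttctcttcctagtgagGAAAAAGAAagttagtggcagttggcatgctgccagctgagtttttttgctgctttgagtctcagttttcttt
HERC5: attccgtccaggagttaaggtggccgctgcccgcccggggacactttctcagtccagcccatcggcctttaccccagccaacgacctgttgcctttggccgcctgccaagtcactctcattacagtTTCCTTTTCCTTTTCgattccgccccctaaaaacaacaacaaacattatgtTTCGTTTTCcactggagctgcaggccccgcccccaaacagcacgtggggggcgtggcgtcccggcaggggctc

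Other antiviral restriction factors followed in part. APOBEC3C, a cytidine deaminase (chromosome 22, 39014257 to 39020352), had 1079.6, 1069 and 1192 CPM in PC3 and 5.35, 0.287 and 0.484 CPM in LNCaP, with a log2 fold change of 9.05, and 11.48 without LNCaP androgen replicate 1. Its relative APOBEC3G had 364, 351 and 418 counts against 3, 1 and 0, whereas APOBEC3F (-3.76) was lower in PC3 and APOBEC3B (0.69) was not called. The pore-forming GSDMD had 121 ± 1.38 CPM in PC3 and 0.525 ± 0.372 CPM in LNCaP, and the zinc finger antiviral protein ZC3HAV1 was lower (-1.82). In all, 10 of 18 tested restriction factors were higher and 2 lower. Among the 10 above 3 CPM in every library, 3 were higher and 1 lower. Antigen processing did not follow the interferon-stimulated genes as a list, with 5 of 20 higher, 3 lower and a median of -0.337. Among the 16 above 3 CPM in every library, 3 were higher and 1 lower. The immunoproteasome subunit PSMB8 (5.59) and the peptidase ERAP2 (3.85) were higher in PC3, whereas HLA-C was lower (-1.10). The classical MHC genes are near-identical copies, and 25.3% of the 74-base stretches of HLA-B occur elsewhere, so reads could be split between them.

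Inflammatory cytokines and targets of NF-kB moved both ways, with 10 of 24 higher and 8 lower. As many as 8 passed the filter through PC3 alone, and among the 12 above 3 CPM in every library, 1 was higher and 5 lower. The plasminogen activator PLAU had 577, 469 and 444 CPM in PC3 and 2.99, 0.239 and 0 CPM in LNCaP, with a log2 fold change of 8.79, and 11.95 without LNCaP androgen replicate 1. The cytokine IL18 had 108 ± 13.1 CPM in PC3 and 0.181 ± 0.230 CPM in LNCaP, and the chemokine CXCL1 331, 430 and 215 counts against 3, 0 and 0. The feedback inhibitors TNFAIP3 (-2.85) and NFKBIA (-2.53) were lower in PC3, together with the cytokines IL32 (-2.95) and CXCL16 (-3.11). Against vehicle-treated cells the split was 13 higher and 3 lower of 22. CXCL1, CXCL5 and CXCL6 lie beside each other on chromosome 4 from 73836640 to 73998677 and had at most 3 counts in any androgen-treated LNCaP library. The receptors of the TNF superfamily showed 8 of 15 higher and 4 lower. Among the 8 above 3 CPM in every library, 3 were higher and 2 lower. TNFRSF21 (272 ± 25.6 CPM in PC3 and 24.1 ± 5.27 CPM in LNCaP), TNFRSF14 (4.51) and TNFRSF25 (5.20) were higher, whereas 2 TRAIL receptors fell. TNFRSF10B fell by 1.72 on the log2 scale, and the decoy TNFRSF10D to 1, 1 and 4 counts from 1275, 1207 and 1145. A further TRAIL receptor, TNFRSF10A, was not called (-0.86), and TNFRSF19 fell by 4.14 on the log2 scale.

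Regulators of complement and coagulation were higher in PC3, with 19 of 28 tested higher, 3 lower and a median of 3.46, and 18 of 26 higher against vehicle-treated cells. Among the 13 above 3 CPM in every library, 6 were higher and 1 lower. The tissue plasminogen activator PLAT had 338, 341 and 474 CPM in PC3 and 1.43, 0.0956 and 0.0484 CPM in LNCaP, with a log2 fold change of 9.45, and 12.28 without LNCaP androgen replicate 1. The protease inhibitor SERPINB1 had 1283, 1020 and 1112 counts against 5, 1 and 0. The complement shields CD55 (5.80) and CD59 (3.45) were higher too, while CD46 was not called (-0.29). Coagulation factors F5 and F8 were lower in PC3, F5 with 1, 2 and 6 counts against 1574, 1274 and 1751 and F8 with a log2 fold change of -1.39.

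Lipid synthesis had the largest share of lower genes among the metabolic lists. Of 44 tested genes of cholesterol and fatty acid synthesis, 29 were lower and 2 higher, with a median of -1.57, and in the 43 above 3 CPM in every library 28 were lower. FASN, the fatty acid synthase (chromosome 17, 82078338 to 82098294), had 207, 299 and 226 CPM in PC3 and 4354, 5144 and 4635 CPM in LNCaP, with a log2 fold change of -4.27 (SE 0.17, adjusted p = 1.96e-07). The squalene synthase FDFT1 (41.3 ± 8.90 CPM in PC3 and 857 ± 26.6 CPM in LNCaP) and the elongase ELOVL7 (0.604 ± 0.125 CPM in PC3 and 293 ± 19.05 CPM in LNCaP) were lower too. Exceptions were ACSL4, which activates polyunsaturated fatty acids (115 ± 7.03 CPM in PC3 and 11.2 ± 1.44 CPM in LNCaP), and ACACB (1.78), the acetyl-CoA carboxylase of the mitochondrial surface. The list summed to 4030 to 4920 CPM in PC3, to 27700 to 29500 CPM in androgen-treated LNCaP and to 9120 to 9850 CPM in vehicle-treated LNCaP. Without androgen, 22 of 44 were still lower in PC3 and 3 were higher, with a median of -0.857. Genes of the peroxisome and of fatty acid oxidation were lower as well, in 19 of 37 cases against 3 higher, with a median of -1.01. HADH (26.9 ± 8.78 CPM in PC3 and 130.3 ± 4.38 CPM in LNCaP) and ECH1 (-2.51, with 33.0% of its stretches shared) of fatty acid oxidation and PEX10 (-2.38), a peroxisomal ubiquitin ligase, were lower. CPT1C (2.85), DECR1 (2.17) and EHHADH (1.13) were higher. PEX10 was at 0.058 against vehicle-treated cells and was not called there.

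Sphingolipid genes were nearer to the background, with 8 of 33 higher and 12 lower. Among the 24 above 3 CPM in every library, 3 were higher and 8 lower. The kinases SPHK1 (3.81) and CERK (4.08), which phosphorylate sphingosine and ceramide, and the serine palmitoyltransferase subunit SPTLC3 (5.24) were higher in PC3. The desaturase DEGS1, which makes ceramide, fell from 1251 ± 13.3 to 114 ± 15.5 CPM, and the sphingomyelinase SMPD2 (-3.16) and the ceramidase ACER2 (-4.28) were lower too. Prostaglandin and leukotriene genes were split, with 6 of 19 higher and 5 lower. Among the 13 above 3 CPM in every library, 1 was higher and 4 lower. The lipoxygenase ALOX15 had 1, 1 and 0 counts in PC3 and 3588, 3109 and 3060 in LNCaP, and the exporter ABCC4 fell by 4.02 on the log2 scale, while ANXA1 (188 ± 21.1 CPM in PC3 and 2.90 ± 0.444 CPM in LNCaP), PLA2G7 (4.92) and TBXAS1 (3.03) were higher.

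Polyamines are secreted by the prostate in quantity, and RNA of many genes of their metabolism was lower in PC3. Polyamines themselves were not measured. Of 24 genes of polyamine and arginine metabolism, 13 were lower and 4 higher, with a median of -1.44, which was -0.647 with 9 lower against vehicle-treated cells. Among the 19 above 3 CPM in every library, 3 were higher and 9 lower. ARG2, an arginase, had 6.19, 5.30 and 4.46 CPM in PC3 and 243, 278 and 257 CPM in LNCaP, with a log2 fold change of -5.61 (SE 0.13, adjusted p = 2.02e-08). ASS1, which makes the precursor of arginine, fell by 4.33 on the log2 scale, and the antizyme OAZ3 by 4.19. The spermine oxidase SMOX (71.2 ± 11.8 CPM in PC3 and 9.66 ± 0.424 CPM in LNCaP), the ornithine aminotransferase OAT (1.77) and the antizyme inhibitor AZIN1 (1.38) were higher in PC3. Of the enzymes on the route from ornithine to spermine, ODC1 (-1.44), AMD1 (-3.69) and SMS (-3.68) were each lower than in androgen-treated cells. The spermidine synthase SRM, also on this route and on the list, is not reported here. ODC1 was higher in PC3 than in vehicle-treated cells by 0.78, under 2-fold.

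Amino acid genes that respond to nutrient stress showed no common direction, with 11 of 41 higher and 12 lower and a median of -0.0124. SLC7A5, the transporter of large neutral amino acids, stood out with 589.7, 449 and 546 CPM in PC3 and 9.01, 7.98 and 5.86 CPM in LNCaP, a log2 fold change of 6.11 (SE 0.19, adjusted p = 5.84e-08). CHAC1 (3.08) and STC2 (2.22), both induced by the integrated stress response, were higher as well. CBS, of transsulfuration (-3.36, with 61.4% of its stretches shared), was lower. Targets of NRF2, the antioxidant regulator, gave 6 of 29 higher and 10 lower. ABCC3 (164 ± 86.7 CPM in PC3 against 0.272 ± 0.305 CPM) and the ferritin heavy chain FTH1 (3489 ± 1599 CPM in PC3 and 1007 ± 34.8 CPM in LNCaP, with 32.1% of its stretches shared) were higher. The glutathione reductase GSR fell by 3.16 and ABCC1 by 2.75 on the log2 scale, so 2 export pumps of the same subfamily differed in opposite directions.

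Zinc genes were near the background as a list (4 of 21 higher and 5 lower), with changes at the level of single genes. The metallothionein MT2A, which buffers zinc and copper, had 241, 219.7 and 188 CPM in PC3 and 23.1, 21.0 and 23.2 CPM in LNCaP, with a log2 fold change of 3.27 (SE 0.11, adjusted p = 7.99e-08). The vesicular zinc exporter SLC30A4, which loads zinc for secretion, fell from 340.3 ± 16.9 to 6.07 ± 1.02 CPM. Importers differed in both directions, with SLC39A6 (-2.31) and SLC39A10 (-2.55) lower and SLC39A13 (1.25) and SLC39A14 (1.01) higher in PC3, although SLC39A14 fell below the 2-fold limit without any of 4 libraries. The promoter of MT2A (chr16:56608334-56608583, plus strand) is shown for its 5 matches of the metal response element core TGCACNC, in capitals on either strand, first bases 246, 168, 88, 54 and 8 before the start, a motif that 11.3% of all tested genes hold:
MT2A: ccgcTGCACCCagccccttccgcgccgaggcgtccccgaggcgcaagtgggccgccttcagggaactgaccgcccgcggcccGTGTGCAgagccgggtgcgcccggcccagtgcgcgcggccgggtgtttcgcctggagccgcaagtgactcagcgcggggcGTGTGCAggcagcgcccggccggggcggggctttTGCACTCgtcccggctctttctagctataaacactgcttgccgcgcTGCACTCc

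Genes of the secretory pathway were mostly within 2-fold, and most of those called were lower in PC3. Of 50 genes of the unfolded protein response and secretion, 19 were lower and 2 higher, with a median of -0.723, against 5 lower and 8 higher with a median of 0.0352 when vehicle-treated cells were the reference. The transcription factor CREB3L4, a prostate member of its family, fell from 198 ± 11.4 to 14.7 ± 1.43 CPM, the cargo receptor TMED3 from 261 ± 15.8 to 59.2 ± 2.54 CPM and the oxidase ERO1B from 28.4 ± 2.41 to 5.01 ± 0.263 CPM. CREB3L1 (15.8 ± 4.26 CPM in PC3 and 1.22 ± 0.542 CPM in LNCaP) and KDELR3 (1.51) were the 2 higher ones. Among chaperones, 14 of 44 were lower and 5 higher. BAG3 (1.94) and DNAJB6 (1.67) were higher. HSPA1A and HSPA1B are near-identical copies that share 72.4% and 73.1% of their stretches with other sequences, and their fitted log2 fold changes of 6.42, and 7.09 without LNCaP androgen replicate 2, and of -2.25 must be read as uncertain.

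Cytosolic ribosomal protein genes were lower in PC3 in 22 of 67 cases and higher in 2, with a median of -0.648, and their summed level was 39900 to 48600 CPM against 63900 to 65900 CPM in androgen-treated and 71500 to 74500 CPM in vehicle-treated LNCaP. RPL22L1, a paralogue of RPL22, fell most, from 887 ± 17.8 to 44.9 ± 3.92 CPM, while RPL22 itself was not called (0.77). RPL39L, a paralogue otherwise known from testis, had 842, 770 and 635 counts in PC3 and 3, 2 and 3 in LNCaP, RPS24 was at 1.00 and was not called without PC3 replicate 3 or without LNCaP replicate 2, and RPL23 (-1.99) and RPL7A (-1.99) were lower. Many ribosomal genes have pseudogene copies, and for RPL7A 31.6% of the stretches are shared. Nuclear genes of the respiratory chain mostly stayed within 2-fold, with 2 of 51 higher and 8 lower and all 51 above 3 CPM in every library. CYC1 (1.33) and NDUFB9 (1.10) were the higher ones, and NDUFB1 (-1.62), UQCRC2 (-1.46) and UQCRQ (-1.38) were the lowest.

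**Figure D3:**
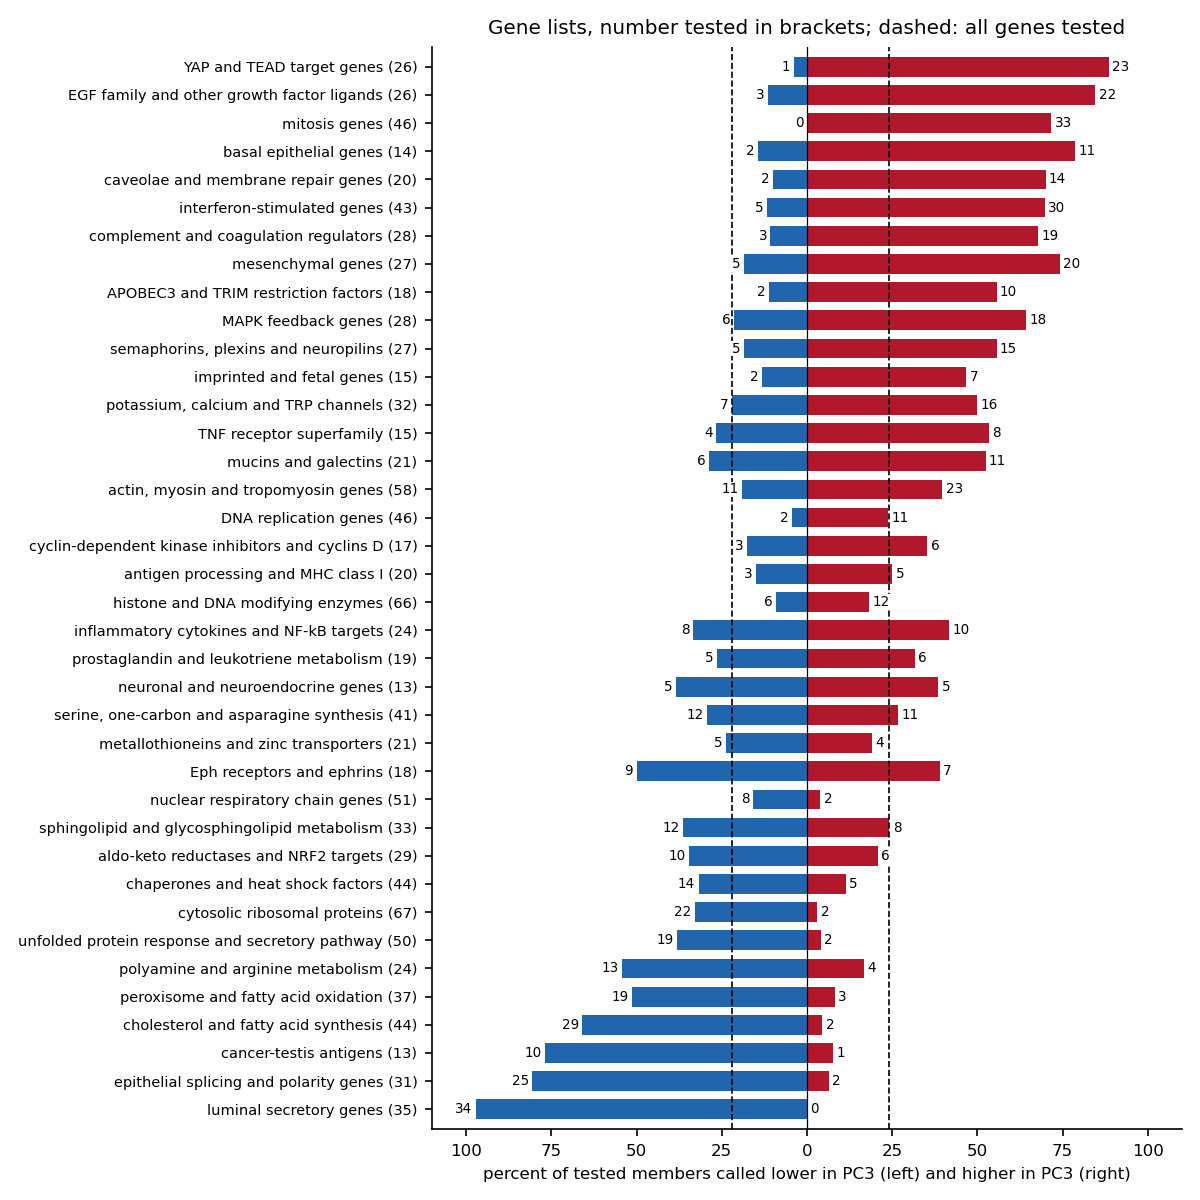
Percent of tested members called higher in PC3 (red, to the right) and lower in PC3 (blue, to the left) for each of 38 gene lists, with the number of genes at the end of each bar and the number tested in brackets. The dashed lines mark 24.0% and 22.1%, the shares over all genes tested, and the lists at the top and bottom extend past them on one side only.

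Mitosis genes were higher in PC3 than in androgen-treated LNCaP. Of 46 tested, 33 were higher and 0 lower, with a median of 1.53, and all 46 were above 3 CPM in every library. Against vehicle-treated LNCaP, 1 was higher and 8 were lower, with a median of -0.384. BIRC5, also known as survivin, had 343, 399.6 and 198 CPM in PC3 and 34.5, 41.3 and 43.5 CPM in LNCaP, with a log2 fold change of 2.98 (SE 0.26, adjusted p = 1.19e-05), and of 0.92 against vehicle-treated cells. The phosphatase CDC25B (3.04 and 1.82) and the kinesin KIF18A (2.62 and 0.57) followed, and CDC25B was the one called higher in both comparisons. The summed level of the list was 4920, 5890 and 3060 CPM in PC3 replicates 1 to 3, 1210, 1590 and 1590 CPM in androgen-treated and 5530, 5160 and 5440 CPM in vehicle-treated LNCaP. PC3 replicate 3 was lowest among the PC3 libraries, and without it 39 of 46 were called higher.

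DNA replication genes varied widely among the PC3 replicates. Of 46, 11 were higher and 2 lower against androgen-treated cells, with a median of 0.35, and 0 were higher and 20 lower against vehicle-treated cells, with a median of -0.93. The 11 higher genes made up 23.9%, beside 24.0% of all genes tested. Without PC3 replicate 3, 17 were higher, without PC3 replicate 2, 4 were higher and 6 lower, and without LNCaP replicate 1, 7 were higher and 1 lower. The thymidine kinase TK1 had 152, 188 and 65.6 CPM in PC3 and 30.1, 35.6 and 36.2 CPM in LNCaP, with a log2 fold change of 1.99 (SE 0.35, adjusted p = 8.49e-04), and of -0.27 against vehicle-treated cells. POLE2 (1.91) and POLD1 (1.60), subunits of replicative polymerases, were higher, and the cyclin CCNE1 was lower (-2.09). The summed level was 2460, 3550 and 1420 CPM in the PC3 libraries, so that the spread among PC3 replicates (1420 to 3550 CPM) enclosed all 3 androgen-treated libraries (1830 to 2140 CPM). Among regulators of the cycle, CDKN1A, the inhibitor p21, had 9.45, 7.80 and 11.8 CPM in PC3 and 138, 108 and 111 CPM in LNCaP (-3.62), and CDKN1B (-1.56) and the pocket protein RBL2 (-1.31) were lower too. CDKN2B (241 ± 54.6 CPM in PC3 and 21.1 ± 1.32 CPM in LNCaP), CDKN3 (2.99) and the kinase CDK6 (4.33) were higher in PC3.

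**Figure D4:**
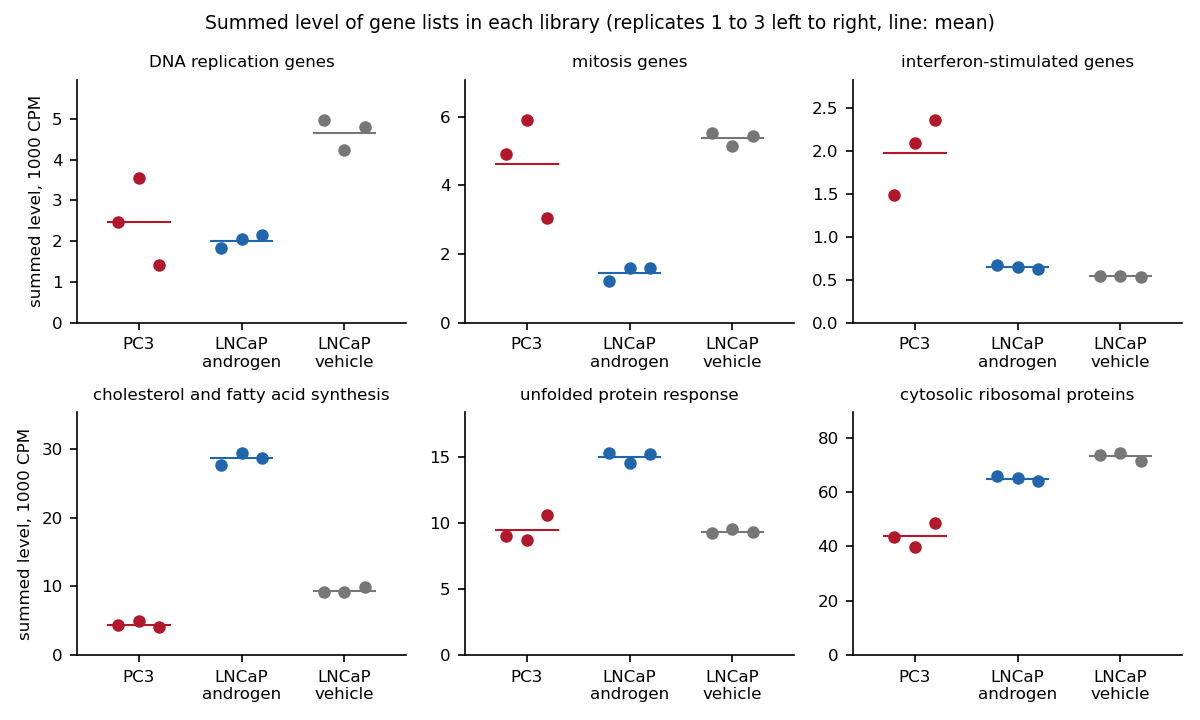
Summed CPM, in units of 1000 and scaled with TMM factors over 9 libraries, of 6 gene lists in PC3, androgen-treated LNCaP and vehicle-treated LNCaP, with 1 point per library and a line at the mean of 3. Mitosis genes lie at 3060 to 5890 CPM in PC3, 1210 to 1590 CPM with androgen and 5160 to 5530 CPM with vehicle, while interferon-stimulated genes are low in both LNCaP groups.

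Cancer-testis antigens, which are normally silent outside the germ line, were mostly silent in both lines, with 45 of 58 listed genes too low to be tested. Of the 13 tested, 10 were lower in PC3 and 1 was higher, and 8 of the 13 passed the filter through LNCaP alone. Among the 4 above 3 CPM in every library, 0 were higher and 2 lower. Some of the lower ones lay in a run on chromosome X from 151912495 to 152769716, where 7 consecutive tested genes had at most 2 counts in any PC3 library. MAGEA3 had 1, 0 and 0 counts in PC3 and 2251, 2017 and 2011 in LNCaP, MAGEA12 0, 0 and 1 against 2048, 1882 and 1761, and MAGEA10 0, 0 and 0 against 1231, 1245 and 1177. Members of this family are close copies, and 43.6% of the stretches of MAGEA3 are shared. SYCP2, a protein of meiotic chromosomes, was the one higher in PC3 (11.7 ± 1.90 CPM in PC3 and 0.905 ± 0.209 CPM in LNCaP). Imprinted and fetal genes were higher in 7 of 15 cases and lower in 2. Among the 9 above 3 CPM in every library, 2 were higher and 1 lower. HMGA2, a chromatin protein of embryonic growth, had 4129, 3462 and 4368 counts in PC3 and 14, 0 and 0 in LNCaP, with a log2 fold change of 9.46, and 14.85 without LNCaP androgen replicate 1. The RNA-binding IGF2BP2 (377 ± 48.5 CPM in PC3 and 1.30 ± 1.00 CPM in LNCaP) and SGCE (55.4 ± 3.86 CPM in PC3) were higher, while the paternally expressed genes PEG3 (8.90 ± 0.580 CPM in PC3 and 430.3 ± 66.4 CPM in LNCaP) and NDN (0 counts in PC3 and 818, 691 and 683 in LNCaP) were lower.

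Neuronal genes were selective in both lines, with 5 of 13 higher and 5 lower. Among the 5 above 3 CPM in every library, 1 was higher and 1 lower. The vesicle protein SYT1 had 1320, 688 and 1180 counts in PC3 and 1, 0 and 0 in LNCaP, whereas its relative SYT4 had 0 in PC3 and 1911, 1837 and 1888 in LNCaP. Over the whole family, 6 of 8 tested SYT genes were higher and 2 lower, with a single member above 3 CPM in every library, the other lower one being SYT7 (-2.26, and -2.90 without PC3 replicate 3). DDC, which makes dopamine and serotonin, had 3, 0 and 3 counts against 265, 185 and 265. Ion channels were higher in 16 of 32 cases and lower in 7. Among the 19 above 3 CPM in every library, 9 were higher and 1 lower. The potassium channels KCNK15 (2279, 1894 and 3222 counts against 0, 1 and 0) and KCNN4 (98.9 ± 8.24 CPM in PC3 and 0.196 ± 0.255 CPM in LNCaP) and the chloride channel ANO1 (139 ± 23.3 CPM in PC3 and 0.510 ± 0.724 CPM in LNCaP) were higher in PC3, while the cation channels TRPM8 (-5.13) and TRPV6 (1, 0 and 0 counts against 445, 428 and 408) and the potassium channel KCNH2 (-4.57) were lower.

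Guidance molecules steer growing axons and other moving cells. Among Eph receptors and ephrins, 7 of 18 were higher and 9 lower. Among the 14 above 3 CPM in every library, 5 were higher and 7 lower. EPHA2 had 746, 696 and 700.4 CPM in PC3 and 8.61, 5.40 and 5.18 CPM in LNCaP, with a log2 fold change of 6.80 (SE 0.20, adjusted p = 5.03e-08), and EPHB6 (5.42) and EPHA5 (5.38) were also higher. The ligand EFNA5 fell from 208 ± 14.7 to 5.46 ± 0.613 CPM, and the receptors EPHA3 (-4.50) and EPHA6 (-2.74) were lower. Of 27 semaphorins, plexins and neuropilins, 15 were higher and 5 lower, with a median of 1.2. Among the 14 above 3 CPM in every library, 5 were higher and 2 lower. Their median was 0.571. The secreted class 3 members SEMA3A (934, 808 and 681 counts against 3, 1 and 3) and SEMA3D (1080, 768 and 1423 against 0, 1 and 2) and the membrane protein SEMA5A (313, 198 and 336 against 2, 1 and 0) were higher in PC3, and SEMA4A (3, 2 and 9 against 1293, 1283 and 1279), SEMA4D (-1.89) and SEMA6A (-6.32) were lower.

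Mucin and galectin genes were higher in 11 of 21 cases and lower in 6. Of the 21 tested, 7 passed the filter through PC3 alone, and among the 9 above 3 CPM in every library, 3 were higher and 2 lower. The galectins LGALS1 (415 ± 6.54 CPM in PC3 and 1.74 ± 1.44 CPM in LNCaP) and LGALS3 (96.4 ± 19.4 CPM in PC3 and 0.342 ± 0.0870 CPM in LNCaP) and the O-glycan initiating enzyme GALNT6 (71.4 ± 2.55 CPM in PC3) were higher in PC3. Enzymes that branch or cap O-glycans were lower, GCNT1 with 0.456 ± 0.134 CPM in PC3 and 84.8 ± 6.95 CPM in LNCaP and ST6GALNAC1 with 3, 5 and 5 counts against 3702, 3115 and 3205, along with the fucosyltransferase FUT1 (-2.31). Of the histone and DNA modifying enzymes, 12 of 66 were higher and 6 lower, which is 18.2% and 9.09% beside 24.0% and 22.1% of all genes. PRDM8 of the PR domain family (96.0 ± 14.3 CPM in PC3 and 0.211 ± 0.252 CPM in LNCaP), the nucleosome remodeller SMARCA1 (269 ± 30.3 CPM in PC3 and 1.35 ± 0.966 CPM in LNCaP) and HDAC9 (742, 589 and 441 counts against 2, 1 and 2) were higher, and the methyltransferase SETD7 (80.8 ± 3.60 CPM in PC3 and 524 ± 18.4 CPM in LNCaP) and the demethylase KDM6A (46.4 ± 3.68 CPM in PC3 and 269 ± 4.41 CPM in LNCaP) were lower.

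Grouped by symbol alone, 195 families had at least 8 tested genes. The largest share called higher, 87.5%, was found for HOXA, which includes antisense RNAs, and ITGA, each with 7 of 8, followed by CDH (8 of 10), COL (15 of 19) and TCF (7 of 9). Many of these genes were not above 3 CPM in every library. Of the members above 3 CPM in every library, 0 of 1 were higher for HOXA, 3 of 4 for ITGA, 1 of 2 for CDH, 4 of 7 for COL and 4 of 6 for TCF. The largest share called lower was found for the cytochromes P450 (CYP, 8 of 13) and the aldehyde dehydrogenases (ALDH, 8 of 14), followed by 6 of 12 genes with the HSD stem, 5 of 10 DHRS genes and 8 of 16 MFSD transporters. In the other direction, 3 CYP, 5 ALDH, 2 HSD and 0 DHRS genes were called higher. Counting again those above 3 CPM in every library, 2 of 4 were lower for CYP, 6 of 9 for ALDH, 3 of 8 for HSD, 3 of 8 for DHRS and 5 of 12 for MFSD. The ALDH family was thus split. ALDH1A3, which makes retinoic acid, was among its 5 higher genes, with 778 ± 62.1 CPM in PC3 and 217 ± 14.1 CPM in LNCaP (1.84). ALDH2, of acetaldehyde, fell by 3.65 on the log2 scale. CYP27A1, a sterol hydroxylase, had 247, 224 and 228 counts in PC3 and 0 in LNCaP, whereas CYP4F11 had 0 in PC3 and 324, 284 and 285 in LNCaP. Cadherins were opposed in the same way, with CDH1 and CDH26 (-4.84) lower and the other 8 higher. The bromodomain genes with the BRD stem gave 0 higher and 0 lower of 8.

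Neighbouring genes that were silent together in one line formed 5 runs in PC3 and 5 in LNCaP, where a run is at least 3 consecutive tested genes with at most 10 counts in every library of that line, a rule set after the values were seen. In LNCaP, they included 2 stretches of the HOXA cluster on chromosome 7, from 27106184 to 27175180 and from 27181157 to 27207259, in which HOXA13 had 1217, 1148 and 1099 counts in PC3 and 1, 1 and 1 in LNCaP, and HOTTIP, a non-coding RNA at the end of the cluster, 178, 169 and 156 against 0. HOXA10, which lies between the 2 stretches, was expressed in both lines (11.5 ± 1.01 CPM in PC3 and 7.20 ± 1.17 CPM in LNCaP) and was not called. In PC3, a run on chromosome 4 from 68447463 to 69295050 held glucuronosyltransferases of the UGT2B family. UGT2B11 had 3, 2 and 1 counts against 11726, 7770 and 7412, UGT2B28 1, 0 and 0 against 4294, 3164 and 3098 and UGT2B15 2, 0 and 1 against 78, 100 and 71. Over 11912 windows of 10 consecutive tested genes, the 1st and the 99th percentile of the median log2 fold change were -1.79 and 2.49. A window on chromosome 14 from 50632058 to 52328598 had a median of 5.56 with all 10 genes called higher, among them SAV1 (1.46) and FRMD6 (7.46), both of the Hippo pathway.

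Another run of genes silent in PC3 lay on chromosome 17. From DHX58 to ATP6V0A1 (42101404 to 42522582, 421 kb), none of 14 genes in the table exceeded 4 counts in a PC3 library, and 2 of them had 0 counts in every library of the series. Summed over the stretch, PC3 libraries held 4, 8 and 2 counts and LNCaP libraries 16836, 15259 and 15526. The signal transducer STAT3 had 1, 3 and 1 counts in PC3 and 7343, 6315 and 6632 in LNCaP, and its relative STAT5B had none in PC3 and 789, 861 and 815 in LNCaP. The acetyltransferase KAT2A had 0, 0 and 1 counts against 1674, 1717 and 1671, and RAB5C, a GTPase of early endosomes, had none in PC3 against 4806, 4128 and 4268. CAVIN1 lies in the same stretch. The nearest tested genes on either side were expressed in PC3 at a lower level. NKIRAS2 had 917, 814 and 971 counts in PC3 against 2180, 1928 and 1974, and NAGLU 253, 232 and 234 against 1605, 1417 and 1403. Between NKIRAS2 and DHX58 lie ZNF385C and C17orf113, both too low to be tested. C17orf113 had 46, 29 and 57 counts in PC3 against 26, 30 and 35 in LNCaP, and ZNF385C 6, 4 and 16 against 3, 9 and 5. For RAB5C, 46.6% of the 74-base stretches are shared with other sequences. Whether the DNA of this stretch is missing in these PC3 cells was not tested. Chromosome 22 was the one with the largest share of genes lower in PC3, 38.3% of 298 against 8.72% higher, and chromosome 21 had the largest share higher, 37.4% of 123.

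**Figure D5:**
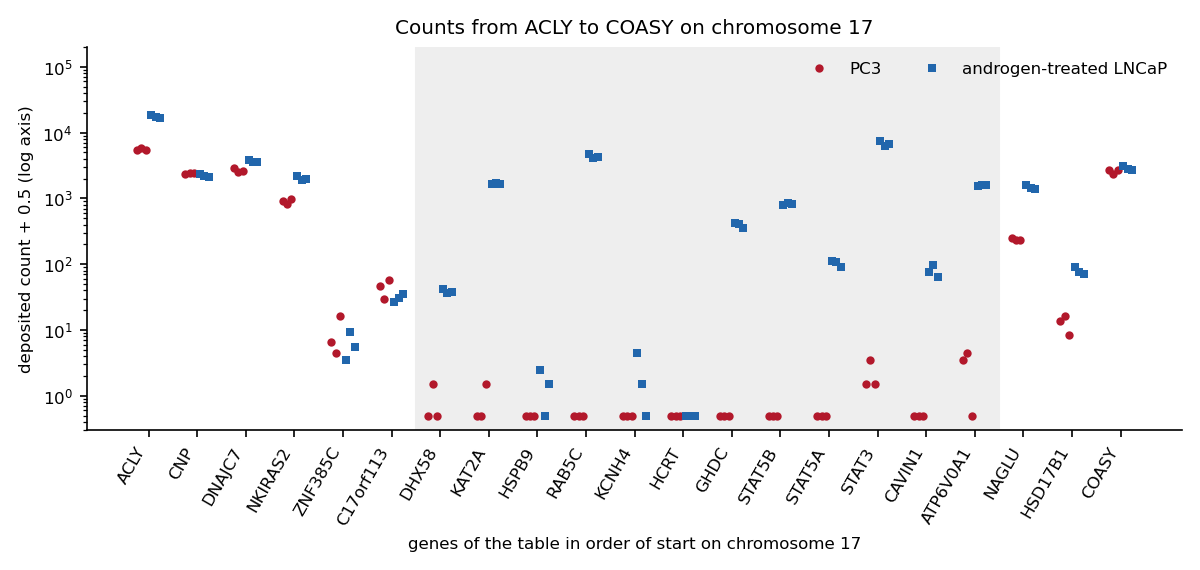
Deposited counts plus 0.5 (log axis) of consecutive genes on chromosome 17 from ACLY to COASY in the 3 PC3 libraries (circles) and the 3 androgen-treated LNCaP libraries (squares). MicroRNA genes are not drawn. In the shaded stretch from DHX58 to ATP6V0A1 no PC3 library exceeds 4 counts, while STAT3, RAB5C and KAT2A have 1671 to 7343 counts in LNCaP.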

How the data were processed

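Counts per gene were deposited by the authors as a table of 9 libraries, equal to the forward-strand column of their STAR output. The submitters' notes name cutadapt 4.1, STAR 2.7.7a and UMI-tools 1.1.2. Reads of the opposite strand were 2.4 to 3.1%, and 20.3 to 25.4% of reads fell on no gene and stayed out of library sizes. Genes above 3 CPM in at least 3 of the 6 libraries were tested with edgeR 4.0.16 in R 4.3.3 (TMM factors, quasi-likelihood F-test, Benjamini-Hochberg adjustment over all genes tested), and genes were called at an adjusted p below 0.05 and at least a 2-fold difference. CPM values carry the TMM factors, and SE is the log2 fold change divided by the square root of F. In data simulated for this comparison on 12541 genes, 190 of 200 changed genes were recovered with 0 false calls. The real comparison called 5773 genes, far more than were changed there, and its own error rate was not tested. Labels do not say whether replicates were separate cultures, so p-values measure the spread between these libraries, which may be technical. The authors modelled experimental batch in their own edgeR fit. Sample labels name no batches, so batch was not modelled in the main comparison here, and its effect was not tested.

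Named genes were the 12 largest rises and falls at 100 CPM or more, up to 3 called genes per direction and list at 10 CPM or more, cell type markers and leading genes of families, windows and replicate spread. Genes on the Y chromosome and genes that the study discusses were left out. Some genes that the rule names are not reported here. Other genes named (for example CDH1, ELL2, NDRG1, MX1, CD55, CD59, ODC1, YAP1, NUAK2, NFKBIA, HOXA13 and STAT3) were chosen after their values were seen. The members and lists were chosen with earlier results of these data known. Positions came from GENCODE 44 for 12128 of the genes tested, promoters from RefSeq for 9959, and shared stretches were counted as 74-base words of a gene's exons found elsewhere. Alternatives covered other normalization, tests, filters, unstranded counts, vehicle-treated cells and each library left out.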

Additional observations from a re-analysis of the deposited data

How the results depend on the processing

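Without a filter on low counts, 21303 genes were tested and 9147 called, 4798 higher and 4349 lower, since more genes near 0 counts in one line were included. With at least 10 counts in every library, 4858 were called. DESeq2 1.42.0, its size factors, edgeR's likelihood ratio test and unstranded counts gave 5772 to 5782 calls, a test against a 2-fold change 4976, and fits without 1 library 5717 to 5830. The last kept the gene set of all 6 libraries, which was chosen after seeing the data. Replicate numbers did not pair the libraries (correlations of -0.0508, 0.0371 and -0.165 over 11357 genes), and with a replicate block 5756 genes were called, 2983 higher and 2773 lower. Windows of 20 genes had medians from -3.31 to 6.13, and among families of at least 12 genes the largest share called higher was 78.9%. Vehicle-treated LNCaP gave 5485 calls, of which 4371 were shared, and turned the direction of ELL2 (2.29), NDRG1 (2.19), HERC5 (1.27), HERC6 (0.031), PEX10 (0.058), ODC1 (0.78), S100A11 (1.07), TK1 (-0.27), TYMS (-0.42) and VEGFA (0.32). The cause was not tested. Among the genes named, 2230 of 2248 values under the processing alternatives kept direction and side of the threshold, and 1753 of 1770 values without 1 library.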

Other observations

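Some further families grouped by symbol had many members called. Of 8 carbohydrate sulfotransferases of the CHST stem, 6 were higher in PC3 and 0 lower (2 of 4 higher among those above 3 CPM in every library), with CHST2 at 105, 118 and 84.5 CPM in PC3 and 1.12, 0.669 and 0.339 CPM in LNCaP, and CHST11, an enzyme of chondroitin sulfate, at 27.5, 25.9 and 30.7 CPM against 1.65, 2.01 and 1.16 CPM. Of 9 genes with the TCF stem, 7 were higher and 0 lower (4 of 6 higher among those above 3 CPM in every library), among them the Wnt-dependent factors TCF7L1 (7.26, and 8.15 without LNCaP androgen replicate 1), TCF7 (3.27) and TCF7L2 (1.85). Of 11 genes with the ANXA stem, which include the receptor ANXA2R and a pseudogene, 8 were higher and 1 lower (3 of 5 above 3 CPM in every library were higher), led after ANXA3 by ANXA2 (1098, 1119 and 897 CPM against 8.34, 2.34 and 1.31 CPM), while ANXA5 differed by 1.53. ANXA2 has a pseudogene in the same table, so its reads could be split. Of 12 genes with the CYB stem, which covers the cytochrome b5 and b561 groups, 6 were lower and 0 higher, all of them above 3 CPM in every library.

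Neighbouring genes held further runs. On chromosome 22, FRG1FP, PSLNR and CECR7 near the start of the chromosome were silent in PC3, with PSLNR at 0 counts in PC3 and 209, 273 and 262 in LNCaP. A window of zinc finger genes on chromosome 19, from 19629476 to 20809995, had a median of -3.64 with 6 of 10 genes lower. In the window on chromosome 4 from 184694085 to 186213463, with a median of -3.07, 8 of 10 genes were lower, among them CYP4V2 with 9, 6 and 7 counts in PC3 and 613, 449 and 508 in LNCaP. Chromosomes 9 (14.7% higher and 32.6% lower of 497) and 20 (31.1% higher and 9.58% lower of 334) also departed from the shares over all genes, and copy number was not measured.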
